A study of Mus musculus with 2 samples.

Results

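The ribosomal DNA copy on mouse chromosome 17 is a stretch of the mm10 assembly that carries part of a ribosomal RNA gene. CpG methylation was read there in liver DNA of CD-1 mice, an outbred stock, 12 weeks old. The fasted library came from mice kept 12 hr without food and the control library from mice of the same stock and age labelled as control. All mice were kept on standard chow. There was 1 library of each kind. The labels give neither the sex of the mice nor whether a library held 1 mouse or several. The p-values and intervals below therefore compare reads, and no value below has a spread between animals. The method was reduced representation bisulfite sequencing, in which DNA is cut at CpG-rich restriction sites and each unmethylated cytosine is converted and read as thymine. The members are the CpG cytosines within a region of 10000 bp that had at least 10 reads in both libraries. They number 786 of the 1603296 autosomal cytosines with that coverage, and 393 lie on each strand. They were chosen by their position and their measured coverage, so coverage is given as a description only.

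Ribosomal RNA genes stand in long tandem arrays on several mouse chromosomes, and only a few copies are present in the genome assembly. RNA polymerase I transcribes each copy into a precursor that is cut into the RNAs of both ribosomal subunits, with spacer sequences removed. In mammals some copies are transcribed while others are kept silent, and CpG methylation is among the known marks of silent copies. Reads from any copy that match the assembly copy can be listed at it, so a level here may be a mean over many copies. How reads with several matches were placed is not given in the sources used here.

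The RefSeq gene table of GRCm38.p6, the same build as mm10, places 2 genes in or across the region. Rn18s-rs5, a pseudogene related to the RNA of the small ribosomal subunit, runs from 39846354 to 39848202 over 1849 bp. AY036118, a long noncoding RNA gene, begins at 39848112 and extends to 39898385, far beyond the region. The table gives no strand for either gene. Of the members, 559 lie below Rn18s-rs5 in coordinate, 125 inside it and 100 above it. The other 2 lie apart, at 39840342 and 39841257, with 16 and 22 reads in the fasted library and 15 and 19 in the control library. The remaining 784 fill a block of 5697 bp, from 39843014 to 39848710. In the 10000 bp beyond the region on the lower side 0 CpG cytosines were listed, and on the upper side 5 were listed, with at most 5 reads in the fasted library and 3 in the control library.

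Members had a median of 1377.5 reads in the fasted library, with a range of 12 to 5649. In the control library the median was 1339.5 reads, with a range of 10 to 5949. These medians were 72.5 times the autosomal median of 19 reads in the fasted library and 74.4 times that of 18 reads in the control library. The members took 2.44% of all listed reads in the fasted library and 2.36% in the control library. Relative to all listed reads, the fasted library had 1.03 times the control library's reads here, and 1.06 times relative to autosomal reads outside the region. Among the 1069 CpG cytosines listed in the region, 283 had under 10 reads in at least 1 library, and 107 of these were listed in 1 library only. Just inside the minimum stood the minus strand cytosines at 39843299, at 33.3% of 12 reads in the fasted library and 10% of 10 in the control library, and at 39845087, at 17.4% of 23 and 30% of 10. Just outside it stood the minus strand cytosine at 39843312, at 22.2% in the fasted library and 0% in the control library, and the plus strand cytosine at 39844899, at 22.2% in both, with 9 reads in each library.

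Most rDNA cytosines were methylated at a low, intermediate level in both libraries, and the level was higher in the fasted library along nearly the whole block. The mean over the 786 members was 21.0% in the fasted library and 17.7% in the control library. The median was 17.6% in the fasted library and 14.4% in the control library, and the middle 50% of members lay between 13.9% and 22.4% in the fasted library and between 11.4% and 18.6% in the control library. A level of 10 to 25% was held by 69.2% of members in the fasted library and 70.5% in the control library. Outside the region 4.52% of autosomal cytosines in the fasted library and 4.58% in the control library had such a level. Those shares changed with depth. By the mean of both libraries, 459 of 517 members with 300 reads or more lay at 10 to 25%, and 87 of 318 outside the region. With 1000 reads or more it was 375 of 409 members and 72 of 130 outside. Members at 50% or more numbered 48 in the fasted library and 31 in the control library. The mean autosomal level was 35.5% in the fasted library and 35.4% in the control library.

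**Figure D1:**
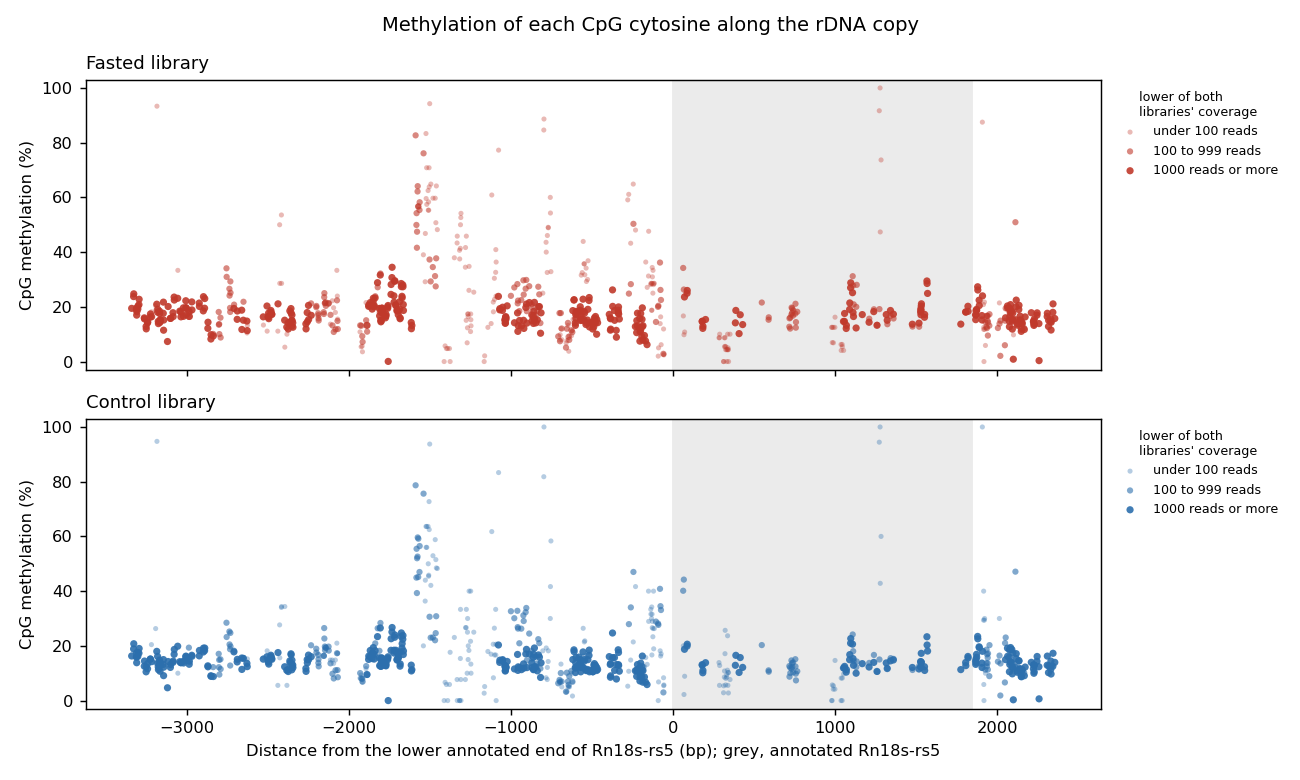
CpG methylation in percent of each member of the block, by distance in bp from the lower annotated end of Rn18s-rs5, in the fasted library above and the control library below. Larger and darker points had more reads, and the grey band is the annotated Rn18s-rs5. Most points lie between 10 and 25% in both libraries, with a cluster near 50% about 1500 bp below Rn18s-rs5.

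The mean difference, fasted minus control, was 3.24 percentage points, with a 95% counting interval of 2.88 to 3.61 points. Of the 786 members, 641 were higher in the fasted library, 142 were lower and 3 were equal. Among all autosomal cytosines tested 29.8% were higher and 29.1% lower, the rest being equal. Where both libraries had 300 reads or more, 492 of 517 rDNA cytosines were higher in the fasted library, and outside the region 54.4% of 318 were higher and 45.6% lower. Those 318 were more methylated than the members, at a mean of 55.9% in the fasted library and 56.8% in the control library. At that depth and a level of 10 to 25%, 440 of 459 rDNA cytosines were higher, and 68 of 87 outside the region. Weighted by reads, the rDNA level was 17.4% in the fasted library (exact Clopper-Pearson interval at 95%, 17.3 to 17.4) from 1251117 reads summed over cytosines. In the control library it was 14.3% (14.2 to 14.4) from 1164090. These intervals take reads as independent, while neighbouring cytosines can lie on the same molecule, so they are too narrow. The levels of the 786 cytosines correlated between the libraries with a Pearson r of 0.842 as a description, over cytosines that share a library and, where close, reads.

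Each cytosine's methylated and unmethylated reads were set against each other by Fisher's exact test (two-sided), with Benjamini-Hochberg adjustment over all 1603296 autosomal cytosines. The test compares the reads of 2 libraries, not the conditions. With no required difference, 94 of 786 members had an adjusted p under 0.05 and were higher in the fasted library, and 0 were lower. Over all autosomal cytosines tested the shares were 0.0525% higher and 0.0394% lower. Depth enters these shares, and where both libraries had 300 reads or more they were 5.35% higher and 9.43% lower among 318 autosomal cytosines outside the region. Of the 517 members with 300 reads, 91 were called higher, which is 17.6%. The 318 also differ from the members in level, and no share of calls was computed at matched level. With a required difference of 5 points, 37 members were called higher and 0 lower, against 0.048% higher and 0.0392% lower over all autosomal cytosines, and 0.943% higher and 8.18% lower among the 318. Of the 517 members with 300 reads, 34 passed that rule. At an unadjusted p under 0.05 there were 361 members higher and 5 lower, against 1.11% higher and 1.05% lower over all autosomal cytosines. With 300 reads, 332 of 517 members were higher and 0 lower at that p, against 20.1% higher and 16.7% lower among the 318. The 94 called members differed by 2.90 to 54.2 points with a median of 4.69, and 41 lay on the plus and 53 on the minus strand. They fell on every part of the block, with 63 below Rn18s-rs5, 15 inside it and 16 above it.

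The smallest p-values belonged to deeply read cytosines, which are given here because of those p-values. The minus strand cytosine at 39847887, inside Rn18s-rs5, stood at 21.1% of 4099 reads in the fasted library and 13.95% of 4057 reads in the control library (adjusted p = 1.50e-12, Fisher's exact test). Its minus strand neighbours at 39847883, 39847885 and 39847907 stood at 19.2%, 18.7% and 17.2% in the fasted library and at 12.4%, 12.2% and 11.01% in the control library. The 4 lie within 1 run of nearly equal coverage, so they may share reads and are not separate observations. The plus strand cytosine at 39843276, near the lower end of the block, stood at 23.6% of 4885 reads in the fasted library and 16.9% of 5177 in the control library (adjusted p = 5.37e-12, Fisher's exact test). At 39848435 on the minus strand, the member with most reads when both libraries are summed, the level was 17.9% of 5647 reads in the fasted library and 14.03% of 5922 in the control library. That difference of 3.91 points had an adjusted p of 5.48e-05 in Fisher's exact test.

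With a required difference of 10 points, 3 members were called higher and 0 lower, against 0.0457% higher and 0.0387% lower over all autosomal cytosines tested, and 0% higher and 5.97% lower among the 318 of 300 reads. None of the 517 members with 300 reads was called at 10 points. A required difference of 25 points left the same 3 members, against 0.0448% higher and 0.0372% lower. All 3 were thinly read and lay below Rn18s-rs5. The plus strand cytosine at 39845037 stood at 40.7% of 59 reads in the fasted library and 0% of 26 in the control library (adjusted p = 0.0434, Fisher's exact test). The minus strand cytosine at 39845046 stood at 54.2% of 48 reads in the fasted library and 0% of 30 in the control library (adjusted p = 0.000520, Fisher's exact test). The plus strand cytosine at 39846081 stood at 61.1% of 36 reads in the fasted library and 10.7% of 28 in the control library (adjusted p = 0.0413, Fisher's exact test). With every read count halved none of the 3 was called.

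The first pair belongs to a short cluster of CpGs in which both strands moved alike. On the plus strand from 39845037 to 39845045, 3 cytosines averaged 44.9% in the fasted library and 7.69% in the control library. On the minus strand from 39845038 to 39845046, 3 cytosines averaged 47.2% in the fasted library and 11.1% in the control library. At the third call, in contrast, the strands did not move alike. From 39846081 to 39846109, 3 plus strand cytosines averaged 56.4% in the fasted library and 15.7% in the control library, whereas their 3 minus strand partners averaged 34.5% in the fasted library and 36.3% in the control library. The minus strand had a median of 151 reads in the fasted library, against 37 on the plus strand.

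Among members with at least 100 reads in both libraries the largest increases were smaller. The minus strand cytosine at 39847488 stood at 28.0% of 107 reads in the fasted library (19.8 to 37.5) and 14.3% of 322 in the control library (10.7 to 18.6). The plus strand cytosine at 39844782 stood at 56.6% of 701 reads in the fasted library and 45.2% of 516 in the control library, and that at 39844872 at 34.5% of 391 and 23.0% of 282. At 39845654 on the plus strand the levels were 17.7% of 175 reads in the fasted library and 7.55% of 159 in the control library. At 39847466 on the minus strand they were 27.8% of 108 and 18.04% of 327. The test passed none of the 5, the adjusted p running from 0.0740 at 39844782 to 1 at 39845654 and 39847466 (Fisher's exact test, Benjamini-Hochberg).

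The largest decreases at that depth all lay on the plus strand, 4 of the 5 near the lower end of Rn18s-rs5. The cytosine at 39846421 stood at 26.3% of 152 reads in the fasted library (19.5 to 34.1) and 44.2% of 147 in the control library (36.0 to 52.6). That at 39846249 stood at 14.5% of 152 and 28.9% of 142, that at 39846280 at 22.5% of 151 and 33.1% of 142, and that at 39846277 at 26.2% of 149 and 34.5% of 142. The fifth, at 39845354, stood at 24.0% of 229 reads in the fasted library and 32.7% of 196 in the control library. None passed the test, with adjusted p from 0.574 at 39846421 to 1 (Fisher's exact test, Benjamini-Hochberg). The 6 plus strand cytosines from 39846249 to 39846280 were all lower in the fasted library, at a mean of 23.3% against 32.2% in the control library.

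Because reads of 1 fragment cover several CpGs, members were also grouped into runs, a grouping chosen after the data were seen. A run joins neighbouring cytosines of 1 strand that lie at most 60 bp apart and differ in coverage by at most 5% in both libraries. Runs of 3 or more members numbered 114 and held 582 members. The mean level was higher in the fasted library in 93 runs and lower in 21. Of the 60 runs with a median of at least 1000 reads in both libraries, 59 were higher, and in 54 of them every member was higher. Their differences ranged from -0.0881 points to 6.67 points with a median of 3.13. The deep run with the largest difference spanned 39847883 to 39847907 on the minus strand, inside Rn18s-rs5. The only deep run that was lower spanned 39843703 to 39843727 on the plus strand, at 13.7% in the fasted library and 13.8% in the control library. Of 27 runs with a median under 100 reads in either library, 15 were higher and 12 lower, from -12.6 to 40.8 points.

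**Figure D2:**
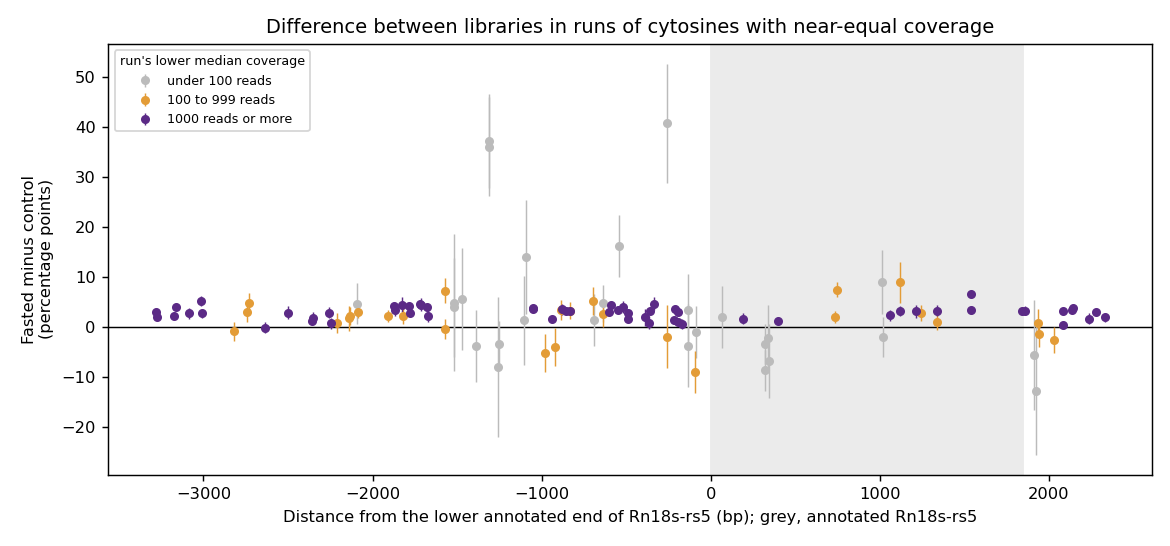
Difference in mean level, fasted minus control in percentage points, of each run of 3 or more cytosines, by distance in bp from the lower annotated end of Rn18s-rs5. Bars are 95% counting intervals, colour gives coverage and the grey band is Rn18s-rs5. Of 60 runs with at least 1000 reads, 59 lie above 0, while runs under 100 reads scatter from -12.6 to 40.8 points.

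The difference was present on all 3 stretches of the block when only deeply read cytosines were counted. With at least 1000 reads in both libraries, the 287 cytosines below Rn18s-rs5 averaged 17.3% in the fasted library and 14.3% in the control library, with 279 higher in the fasted library. The 52 inside Rn18s-rs5 averaged 18.01% in the fasted library and 14.4% in the control library, with 51 higher. The 70 above it averaged 16.3% in the fasted library and 13.6% in the control library, with 67 higher. The differences were 2.94 points below Rn18s-rs5 (counting interval 2.82 to 3.07), 3.62 inside it (3.33 to 3.92) and 2.67 above it (2.43 to 2.91). Over all members the differences were 3.85, 2.25 and 0.957 points, so the order of the stretches changed with the coverage minimum. Whether the stretches differ from each other was not tested, since each has 1 value per library.

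In windows of 500 bp, 11 of the 12 windows of the block had a higher mean in the fasted library. The exception lay inside Rn18s-rs5, from 39846501 to 39847000, where 33 cytosines averaged 9.22% in the fasted library and 11.4% in the control library. Its difference was -2.18 points (counting interval -3.82 to -0.548), and its median coverage, 46 reads in the fasted library and 74 in the control library, was the lowest of the 12. In it the minus strand run from 39846667 to 39846686 had all 5 cytosines lower, at a mean of 3.27% in the fasted library and 11.9% in the control library. The deeply read minus strand run from 39846739 to 39846769 in the same window averaged 15.0% in the fasted library and 13.9% in the control library. The largest window difference, 6.06 points (5.07 to 7.05), lay from 39845501 to 39846000, at 20.8% in the fasted library and 14.8% in the control library, with 99 of 106 cytosines higher. The median difference in that window was smaller, 3.65 points. Weighted by reads, the window stood at 16.6% in the fasted library and 13.2% in the control library. The window with the highest level, from 39844501 to 39845000, averaged 32.3% in the fasted library and 28.4% in the control library.

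That window holds the most methylated well-read cytosines of the block. The 3 highest, at least 100 reads each, were the plus strand cytosine at 39844766 and the minus strand cytosines at 39844815 and 39844779. They stood at 82.7% of 352, 76.1% of 544 and 64.1% of 1081 reads in the fasted library, and at 78.7% of 258, 75.6% of 398 and 59.6% of 795 reads in the control library. They lie in a stretch of 50 bp, from 39844766 to 39844815, outlined after its values were seen, in which all 12 cytosines with 100 reads lay at 41.6% to 82.7% in the fasted library and 39.3% to 78.7% in the control library. Within the 100 bp below the stretch, 15 cytosines lay between 12.0% and 28.5% in the fasted library and between 10.8% and 24.7% in the control library. In the 100 bp above it, the 6 cytosines with 100 reads, all on the plus strand, averaged 32.9% in the fasted library and 25.7% in the control library. Their less read minus strand partners were more methylated. Those at 39844853 and 39844860 stood at 94.3% and 64.9% in the fasted library and at 93.75% and 42.1% in the control library. The other 4 averaged 58.6% in the fasted library and 52.9% in the control library. All 25 cytosines in the 100 bp above the stretch, with medians of 56 reads in the fasted library and 29 in the control library, averaged 54.1% in the fasted library and 48.4% in the control library.

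Strands differed within this stretch in how far the libraries lay apart. The 5 plus strand cytosines from 39844771 to 39844790 averaged 53.1% in the fasted library and 45.8% in the control library, a difference of 7.34 points (counting interval 4.82 to 9.86). Their 5 minus strand partners, from 39844772 to 39844791, averaged 56.2% in the fasted library and 56.6% in the control library, a difference of -0.397 points (-2.42 to 1.63). At the CpG with its plus strand cytosine at 39844782 the strands stood at 56.6% and 56.8% in the fasted library. In the control library they stood at 45.2% on the plus and 59.2% on the minus strand (adjusted p = 0.00193, Fisher's exact test of the strands).

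At the other extreme, 3 deeply read cytosines had almost no reads called methylated in either library, and the cause was not tested. The minus strand cytosine at 39844597 had 1 methylated read of 1889 in the fasted library, 0.0529% (exact interval 0.00134 to 0.295), and 0 of 1958 in the control library, where the interval allows up to 0.188%. The minus strand cytosine at 39848613 stood at 0.340% of 2351 reads in the fasted library and 0.633% of 1422 in the control library. The plus strand cytosine at 39848454 stood at 0.854% of 2341 and 0.291% of 2065. Their partners on the other strand were methylated at the level usual for the block or somewhat below it. The plus strand partner of 39844597 stood at 20.5% of 1679 reads in the fasted library and 16.003% of 1556 in the control library, that of 39848613 at 13.9% of 2804 and 12.4% of 2077. The minus strand partner of 39848454 stood at 9.76% of 41 reads in the fasted library and 10.6% of 47 in the control library.

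The level and the difference both varied with coverage. The 409 members of 1000 reads or more averaged 17.2% in the fasted library and 14.2% in the control library, a difference of 2.98 points (counting interval 2.88 to 3.09), and 397 were higher in the fasted library. The 108 with 300 to under 1000 reads averaged 22.1% in the fasted library and 19.4% in the control library, and 95 were higher. The 60 with 100 to under 300 reads averaged 21.7% in the fasted library and 21.9% in the control library, a difference of -0.136 points (-1.16 to 0.884), with 29 higher and 31 lower. The 123 with 30 to 99 reads averaged 21.8% in the fasted library and 18.7% in the control library, with 67 higher. The 86 with 10 to 29 reads averaged 35.9% in the fasted library and 28.1% in the control library, with 53 higher. The spread of the differences narrowed with depth, with an SD of 14.3 points over the 209 members under 100 reads and of 1.62 points over the 409 with 1000 or more. Outside the region, autosomal cytosines with 10 to 29 reads averaged 38.6% in the fasted library and 38.5% in the control library, and those with 30 to 99 reads averaged 11.4% in both.

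**Figure D3:**
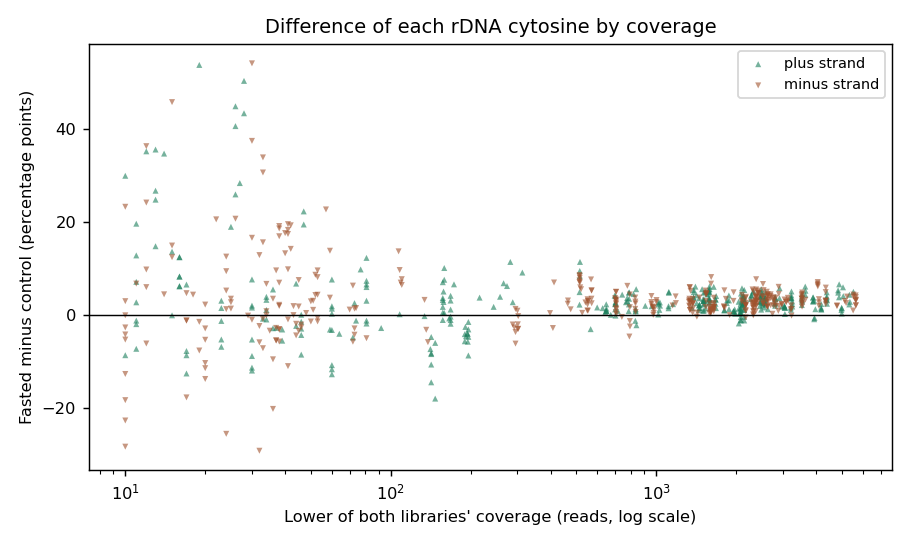
Difference of each member of the block, fasted minus control in percentage points, against the lower of both libraries' coverage in reads on a log scale, by strand. Of 409 members with at least 1000 reads, 397 lie above 0, between -1.75 and 8.22 points over all 409, while members under 100 reads spread from -29.1 to 54.2 points.

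Pooled over all coverages, the strands had similar mean levels and differences, while at low coverage they lay apart. Plus strand members averaged 21.3% in the fasted library and 17.98% in the control library, a difference of 3.33 points (counting interval 2.83 to 3.83). Minus strand members averaged 20.6% in the fasted library and 17.5% in the control library, a difference of 3.16 points (2.63 to 3.69). At 10 to 29 reads the difference was 14.1 points on the plus strand (10.5 to 17.7) and 1.81 on the minus strand (-1.77 to 5.39). At 30 to 99 reads it was 0.109 points on the plus strand (-2.01 to 2.22) and 4.98 on the minus strand (3.32 to 6.65). At 100 to under 300 reads it was -0.735 points on the plus strand (-1.86 to 0.392) and 2.03 on the minus strand (-0.324 to 4.39). With 1000 reads or more it was 2.95 points on the plus strand and 3.02 on the minus strand. Both cytosines of a CpG were members at 365 CpGs. Both strands were higher in the fasted library at 263 of these CpGs, both lower at 24, and at 78 the strands went in opposite directions or 1 was equal. With at least 1000 reads on each strand in both libraries, both strands were higher at 148 of 156 CpGs and both lower at 0. At those 156 the median absolute gap between strands within a library was 1.502 points in the fasted library and 1.44 in the control library. The median absolute gap between libraries there was 2.96 points on the plus strand and 3.03 on the minus strand. The strand gap is measured within a library, so it cannot gauge how far libraries differ by preparation or animal.

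Some CpGs held a wide gap between strands, and mostly the same gap in both libraries. By Fisher's exact test of the strands, adjusted over 452020 autosomal CpGs, with a required gap of 10 points, 20 of 365 rDNA CpGs were called in the fasted library and 26 in the control library. The shares over all autosomal CpGs were 0.0575% in the fasted library and 0.0697% in the control library. Depth enters these shares too, and no share outside the region was computed at the depth of the rDNA CpGs. Of the calls, 16 were shared by both libraries, and all 16 had the same sign. With 100 reads on each strand in both libraries, 8 of 236 CpGs were called in the fasted library, 15 in the control library and 7 in both. With 1000 reads, 2 of 156 were called in each library, the same 2 in both. Their plus strand cytosines lie at 39844596 and 39848612, and their minus strand cytosines had almost no reads called methylated. The strand gaps of the 365 CpGs correlated between the libraries with r = 0.792 as a description, over CpGs that can share reads.

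The widest gaps fell where 1 strand was thinly read. The minus strand cytosine at 39843170 stood at 93.3% of 30 reads in the fasted library and 94.7% of 19 in the control library, and its plus strand partner at 21.0% of 3540 and 17.99% of 3252. The plus strand cytosine at 39847627, inside Rn18s-rs5, stood at 91.7% of 60 reads in the fasted library and 94.4% of 36 in the control library, and its minus strand partner at 19.2% of 1007 and 15.0% of 959. At 39848467, with more reads, the plus strand stood at 50.9% of 216 reads in the fasted library and 47.1% of 278 in the control library. Its minus strand partner stood at 15.3% of 1538 and 12.2% of 2276. In a further place the less read plus strand was the more methylated, over several CpGs. Its 5 cytosines from 39845418 to 39845449 averaged 26.6% in the fasted library and 30.5% in the control library, with medians of 229 and 195 reads. The minus strand run from 39845376 to 39845453, with a median of 2556 reads in the fasted library, averaged 15.1% in the fasted library and 13.5% in the control library. There the plus strand was lower and the minus strand higher in the fasted library.

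**Figure D4:**
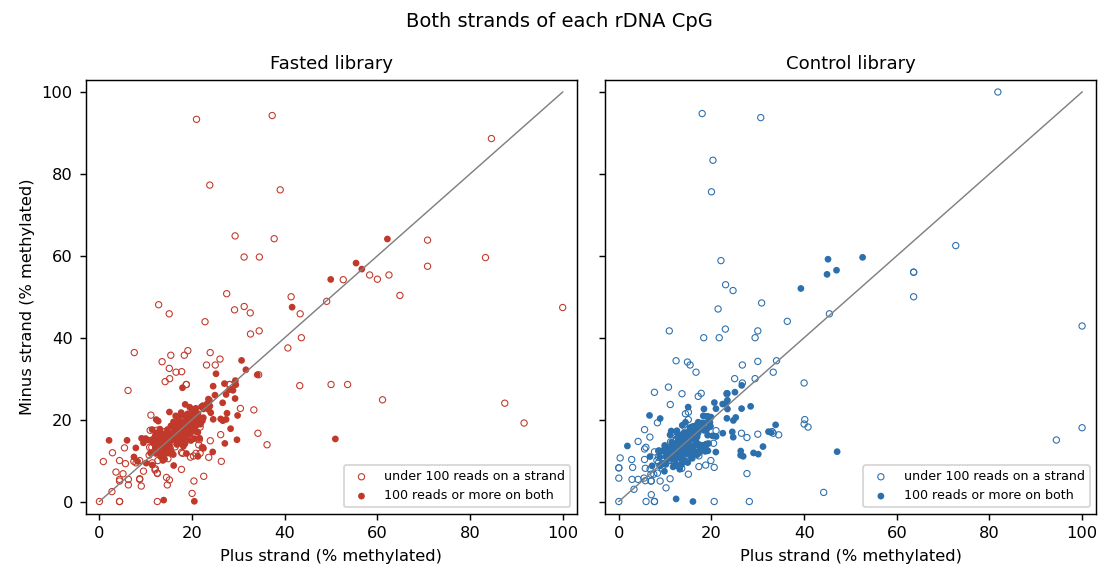
Methylation in percent of the minus strand against the plus strand of each rDNA CpG, in the fasted library on the left and the control library on the right. Filled points had at least 100 reads on both strands in both libraries, and the line marks equal levels. Filled points gather near the line between 10 and 30%, and most of the points far from it had under 100 reads on a strand.

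Deeply read loci elsewhere were set beside the rDNA copy, chosen after the data were seen as bins of 10000 bp holding 4 or more autosomal cytosines of 1000 reads. There were 8 such loci, and 6 of them had low levels. Those 6 averaged 11.3% to 20.7% in the fasted library and 9.19% to 17.8% in the control library. All 6 were higher in the fasted library, by 1.78 to 2.88 points, with 84 of their 92 cytosines higher and 8 lower. On chromosome 16, inside Zc3h7a, 30 cytosines from 11144050 to 11144122 averaged 11.3% in the fasted library and 9.19% in the control library. Also on chromosome 16, within both Cmss1 and Filip1l, 11 cytosines from 57391375 to 57391517 averaged 20.7% in the fasted library and 17.8% in the control library. On chromosome 13, from 9834319 to 9834469, 22 cytosines averaged 18.6% in the fasted library and 16.8% in the control library. The cytosines of all 8 loci are among the 318 outside the region with 300 reads or more. No sequences were compared, so whether these loci hold sequence like the rDNA copy was not tested.

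The other 2 deep loci were highly methylated and had a lower mean in the fasted library, though their cytosines were divided. On chromosome 2, from 98662565 to 98667310, 22 cytosines averaged 79.9% in the fasted library and 81.1% in the control library, with 9 higher and 13 lower. On chromosome 14, from 19415740 to 19415787, 5 averaged 90.2% in the fasted library and 91.8% in the control library, with 2 higher and 3 lower. Within the level class of 10 to 25% and at least 1000 reads, 375 rDNA cytosines differed by 2.9995 points (counting interval 2.89 to 3.11) and 72 outside the region by 2.19 points (1.97 to 2.40). In the class under 10%, 19 rDNA cytosines differed by 1.03 points (0.717 to 1.33) and 22 outside the region by 1.06 points (0.767 to 1.35). In the class of 25 to 50%, 15 rDNA cytosines differed by 5.05 points (4.33 to 5.77) and 5 outside the region by -3.15 points (-4.32 to -1.98). Of those 5, however, 3 were higher in the fasted library and 2 lower, with a median difference of 3.80 points. With 1 library per group, no test of these gaps over animals was possible.

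**Figure D5:**
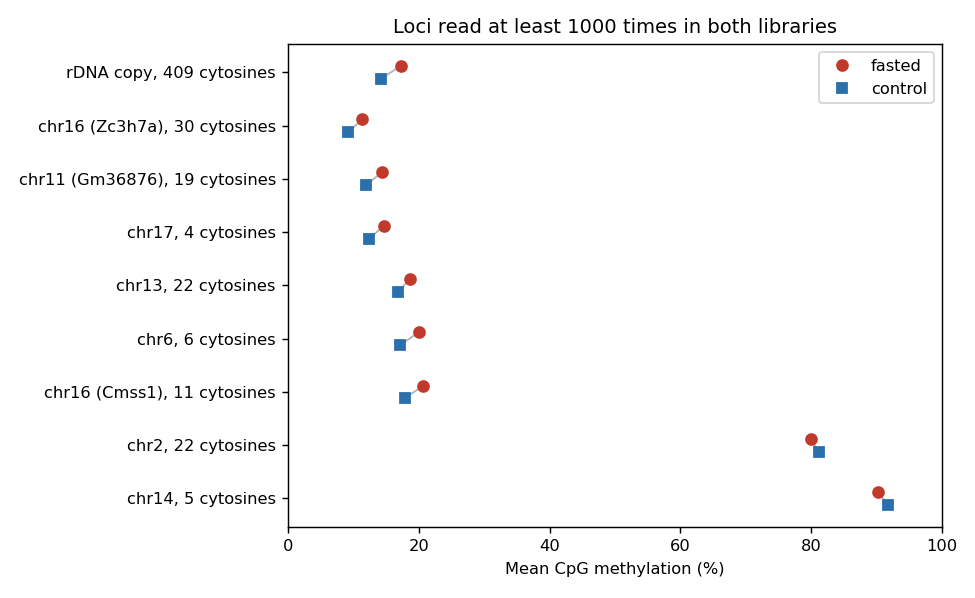
Mean CpG methylation in percent of the rDNA copy and of the 8 other autosomal loci read at least 1000 times in both libraries, fasted as circles and control as squares. The rDNA copy and the 6 other loci under 25% have the fasted point to the right, and the 2 loci near 80% and 90% have it to the left.

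Mitochondrial CpG cytosines were also deeply read. Over 17 mitochondrial cytosines of 1000 reads or more, 0.951% of 49398 reads were called methylated in the fasted library (exact interval 0.868 to 1.04), against 0.930% of 59917 in the control library (0.854 to 1.0097). The least methylated rDNA cytosines, such as 39844597, stood below these values. The part of incomplete conversion in the rDNA difference was not tested.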

How the data were processed

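Genomic DNA of frozen liver was cut with TaqαI and MspI, size selected, bisulfite converted and read on an Illumina HiSeq, as the labels' protocols state. Named as tools in the submitters' processing notes are bcl2fastq 1.8.4 and Bismark 0.14.3, with build mm10. No source used here gives alignment settings or the handling of duplicates, repeats or overlapping mates. The authors' deposited files list CpG cytosines by strand, with a text field of methylated and total reads and a score. The deposited score equals the fraction of methylated reads scaled to 1000, to within 0.5. Levels were computed from the deposited read counts without normalization, and positions count from 1. Listed reads total 51276705 in the fasted and 49253627 in the control library.

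The members and the settings were chosen with earlier results of these data known. Named cytosines follow a rule: among members with 100 reads, the 5 largest increases and decreases, the 3 highest and lowest levels, the most read member, and 2 on each side of the coverage minimum. Other positions were chosen after their values were seen. Fisher's exact tests and Benjamini-Hochberg adjustment ran over all autosomal cytosines (Python 3.11.15, numpy 2.4.6, numba 0.67.0, scipy 1.17.1). They were tried on simulated data with each cytosine's reads drawn independently, so that trial cannot show how shared reads affect the calls. Calls required an adjusted p under 0.05 and 10 points. All intervals cover counting error only, with reads taken as independent, and hold no spread between animals. PCR reads that carry no molecular identifier need not be separate molecules, so the intervals can be too narrow even for counting error. No sequence of the region is printed, as no genome was used here. Alternatives were other coverage minimums, weightings, strands, required differences, equal depth by thinning, halved counts and adjustment over all chromosomes.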

Additional observations from a re-analysis of the deposited data

How the results depend on the processing

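The mean rDNA difference kept its direction under all 12 alternatives tried. It was 3.81 points with a minimum of 5 reads, 2.60 with 100 reads and 2.25 over Rn18s-rs5 alone. In an alternative added after seeing the data, it was 3.91 with equal weight for each run of any size, single cytosines included. It stayed within its counting interval with a minimum of 20 reads, read weighting, merged strands, each strand alone and equal depth, and in 2 further alternatives added after seeing the data, a minimum of 1000 reads and leaving out the 2 members outside the block. Members called higher numbered 37 with 5 required points, 94 with none, 1 with a minimum of 5 reads, 6 with 20 reads and 0 with halved counts. The shares over all autosomal cytosines for the required points are given above. For the coverage minimums and halved counts they were not computed, so those counts have no background. No alternative called a member lower. With 25 required points 11 CpGs had strands called different in each library, and with halved counts 8 in the fasted and 9 in the control library. No share over all autosomal CpGs was computed for these strand settings. The coverage ratio was 1.06 both as a median over members and per autosomal read outside the region. At 39848613 the difference was 0.0991 points with merged strands, against -0.293 points on the minus strand alone. Of the 3 cytosines called at 10 points, 39845037 and 39846081 lost their calls with a minimum of 5 reads and at equal depth, and 39846081 also with merged strands, at 6.89 points. The call at 39845046 was lost only with halved counts, and 39844782 gained a call with a minimum of 20 reads. The cause of these changes was not tested. No paired analysis was possible because each group has 1 library. Depth limits single cytosines: called members that differed by under 10 points had at least 817 reads in the fasted and 514 in the control library.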
